A study of Rattus norvegicus with 18 samples.

Results

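Neuropeptides that sensory neurons are known to make after nerve injury, and the receptors that bind them, were followed as 8 genes in rat dorsal root ganglia: the peptide genes Npy, Gal, Vip and Adcyap1 and the receptor genes Npy1r, Npy2r, Galr1 and Galr2. The 8 genes were taken by symbol from a count table of 25678 genes. All 8 passed the filter on low counts, which left 17043 genes for testing. In these libraries Npy, Gal and Vip had a wider spread between replicates of 1 group than about 97.6% or more of the genes tested, while differences between groups made up a share of their variance near that of the median gene, and no gene of the 8 passed the test of edgeR in any of 7 comparisons of groups.

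The libraries came from messenger RNA of dorsal root ganglia in a study of a rat model of neuropathic pain and of a traditional herbal decoction, Shentong Zhuyu decoction, given against it. The 18 libraries formed 6 groups of 3. NPP_herb and NPP_solvent were in the disease state NPP and received herb or solvent, Sham_herb and Sham_solvent were in the state Sham with the same 2 treatments, Ctrl_solvent was in the state Ctrl with solvent, and Ctrl was in that state with no treatment named. The labels and the design text do not state strain, age, sex, how the model was made, dose, time of sampling or which ganglia were taken. They also do not say whether replicates were separate animals. The p-values here can therefore speak only of the spread among these libraries, part of which may be technical. The labels of the Ctrl group name neither solvent nor herb, and those of all other groups name 1 of them.

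Neuropeptide Y, galanin, vasoactive intestinal peptide (VIP) and pituitary adenylate cyclase-activating peptide (PACAP, made from Adcyap1) are short peptides cut from precursor proteins and released from dense-core vesicles. In rats, cutting the axons of sensory neurons is known to switch on neuropeptide Y mainly in large neurons and galanin, VIP and PACAP mainly in smaller ones, together with the transcription factor Atf3, the usual marker of an injured sensory neuron. The receptors are coupled to G proteins: the Y receptors encoded by Npy1r and Npy2r and the galanin receptor encoded by Galr1 inhibit adenylate cyclase, Galr2 acts mainly through phospholipase C, and the receptors of VIP and PACAP stimulate adenylate cyclase.

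Depth, in 1e6 counted reads per library, ran from 18.2 to 50.3 with a median of 28.4. The tissue label was checked against 10 sensory neuron markers, whose summed level was 10737 to 13968 CPM (counts scaled to library size by TMM) in every library. Y-linked genes summed to 1.56 and 4.75 CPM in Ctrl replicates 2 and 3, against 127 to 177 CPM in the other 16 libraries. Atf3 did not follow the group labels: it was at 10.8 and 14.0 CPM in replicate 3 of NPP_herb and of NPP_solvent, where the other replicates had 39.4 to 107 CPM, and at 54.5, 29.4 and 94.6 CPM in replicate 3 of Sham_herb, Sham_solvent and Ctrl_solvent, where the other replicates had 10.4 to 15.9 CPM. The 3 Ctrl libraries were at 9.53 to 9.69 CPM. What sets these libraries apart was not tested. Whether the libraries numbered 3 belong to the groups they are labelled with was not tested either, and the group means and fold changes here take the labels as given.

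The stretch around the start of each peptide gene is shown as a description. Atf3 belongs to the family of basic leucine zipper factors that bind sites built on the letters TGACG. Binding was not measured here, and any part of Atf3 in the levels of these genes was not tested. The windows run from 250 bases before to 50 bases after the RefSeq gene start, on build GRCr8, each read 5′ to 3′ on the strand of its gene. Npy lies at chr4:80211861-80212160 (plus strand), Gal at chr1:210084523-210084822 (minus strand), Vip at chr1:44470230-44470529 (plus strand) and Adcyap1 at chr9:120556424-120556723 (minus strand). Capitals mark TGACG, searched on both strands.
Npy: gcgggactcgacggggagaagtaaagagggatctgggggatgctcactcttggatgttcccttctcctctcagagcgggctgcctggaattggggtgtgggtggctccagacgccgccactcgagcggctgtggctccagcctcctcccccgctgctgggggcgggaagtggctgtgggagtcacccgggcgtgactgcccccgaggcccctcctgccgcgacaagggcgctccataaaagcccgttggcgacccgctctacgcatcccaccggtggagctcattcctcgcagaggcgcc
Gal: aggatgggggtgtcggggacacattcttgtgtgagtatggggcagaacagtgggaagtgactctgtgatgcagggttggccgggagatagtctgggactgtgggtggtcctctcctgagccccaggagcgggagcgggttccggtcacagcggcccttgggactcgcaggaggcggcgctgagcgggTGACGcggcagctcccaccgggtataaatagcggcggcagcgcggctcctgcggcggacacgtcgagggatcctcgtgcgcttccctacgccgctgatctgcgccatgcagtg
Vip: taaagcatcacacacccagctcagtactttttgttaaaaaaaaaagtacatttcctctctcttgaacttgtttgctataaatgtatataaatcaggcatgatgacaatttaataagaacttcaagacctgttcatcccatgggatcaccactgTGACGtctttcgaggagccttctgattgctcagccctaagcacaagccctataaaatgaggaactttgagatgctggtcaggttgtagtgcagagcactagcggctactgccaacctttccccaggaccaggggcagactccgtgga
Adcyap1: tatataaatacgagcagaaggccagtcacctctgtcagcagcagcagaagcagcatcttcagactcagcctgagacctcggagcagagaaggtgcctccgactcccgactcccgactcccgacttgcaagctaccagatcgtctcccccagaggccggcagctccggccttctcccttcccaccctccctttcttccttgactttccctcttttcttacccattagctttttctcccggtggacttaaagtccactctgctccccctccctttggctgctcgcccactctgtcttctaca
TGACG was found once in Gal, 63 bases before the start, and once in Vip, 97 bases before it, and in neither Npy nor Adcyap1. Of the receptor genes it was in Npy1r, 138 bases before the start on the opposite strand, so 3 of the 8 windows held it, against 21.2% of all 33469 RefSeq windows of this length. The full palindrome TGACGTCA was in none of the 8 windows and in 1.83% of all windows. TGANTCA, the AP-1 letters, was found only in Npy2r, 148 bases before the start, and in 7.33% of all windows. CCAAT was found in Npy, Npy2r and Galr1, and in 37.5% of all windows. In Npy2r the 50 bases after the start begin with ATG, so that start may be one of translation. The bases before it, with both of these matches, may then not be a promoter. A TATAAA was found 41 bases before the start of Gal and 48 bases before that of Vip, with further copies in Vip 175 and 165 bases before the start and 1 in Adcyap1 at 248 bases, against 14.2% of all windows. TGACG and TATAAA were chosen after the sequences had been seen. TGACG can lie inside the palindrome.

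Npy encodes neuropeptide Y. It had 62.0, 173 and 1.23 CPM in NPP_herb, 120.4, 58.2 and 3.18 CPM in NPP_solvent, 1.65, 1.75 and 112 CPM in Sham_herb, 2.76, 2.75 and 29.3 CPM in Sham_solvent, 1.89, 1.79 and 196 CPM in Ctrl_solvent, and 1.18, 1.41 and 0.620 CPM in Ctrl. The values fell on either side of a wide gap, with 7 libraries at or above 29.3 CPM and 11 at or below 3.18 CPM. Both NPP groups had a pair of high libraries and 1 low one, Sham_herb, Sham_solvent and Ctrl_solvent had 1 high library each, and Ctrl had none. In all 5 of these mixed groups replicate 3 was the library apart from the other 2. The highest value of all, 196 CPM from 4480 reads, was in a Ctrl_solvent library. By group mean the order was NPP_herb, Ctrl_solvent, NPP_solvent, Sham_herb, Sham_solvent and Ctrl. Every group overlapped the next but Sham_solvent, which lay above Ctrl, and the share of all genes that did so was not counted.

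Gal encodes galanin. Its levels were 25.8, 76.5 and 7.79 CPM in NPP_herb, 48.5, 29.4 and 7.80 CPM in NPP_solvent, 8.06, 6.49 and 15.3 CPM in Sham_herb, 13.5, 9.80 and 24.0 CPM in Sham_solvent, 6.44, 8.71 and 32.9 CPM in Ctrl_solvent, and 11.5, 9.65 and 6.56 CPM in Ctrl. The same libraries were high as for Npy, on a narrower range of 6.44 to 76.5 CPM, and all 6 groups overlapped. The group means ran in the order NPP_herb, NPP_solvent, Ctrl_solvent, Sham_solvent, Sham_herb and Ctrl. Unlike Npy, Gal was well detected in every library, with at least 119 reads.

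Vip encodes VIP. It was at 9.78, 17.1 and 0.171 CPM in NPP_herb, 12.8, 1.04 and 1.41 CPM in NPP_solvent, 0.434, 0.986 and 2.65 CPM in Sham_herb, 0.447, 0.314 and 5.07 CPM in Sham_solvent, 0.216, 0.460 and 6.74 CPM in Ctrl_solvent, and 0.184, 0.194 and 0.261 CPM in Ctrl. NPP_solvent replicate 2, high for Npy and Gal, was not high for Vip. The order of the means was that of Gal, and each group overlapped the next in it except Sham_herb and Ctrl. There the lowest Sham_herb library had 0.434 CPM from 15 reads and the highest Ctrl library 0.261 CPM from 8 reads. The share of all genes that separate these groups was not counted. At the low end Vip rested on few reads, from 4 upward, so low libraries cannot be ordered at this depth.

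Adcyap1 encodes PACAP, which sensory neurons also make without injury. Its levels were 114, 133 and 85.7 CPM in NPP_herb, 129, 95.9 and 110.5 CPM in NPP_solvent, 83.5, 74.9 and 108 CPM in Sham_herb, 65.3, 63.8 and 93.0 CPM in Sham_solvent, 63.3, 69.8 and 156 CPM in Ctrl_solvent, and 64.1, 70.5 and 84.0 CPM in Ctrl. The highest library was 2.46 times the lowest, against 316 times for Npy, 99.6 times for Vip and 11.9 times for Gal. All 3 NPP_solvent libraries lay above all 3 Sham_solvent libraries. The means of NPP_solvent and NPP_herb were the highest, followed by Ctrl_solvent, Sham_herb, Sham_solvent and Ctrl, and each group overlapped the next.

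**Figure D1:**
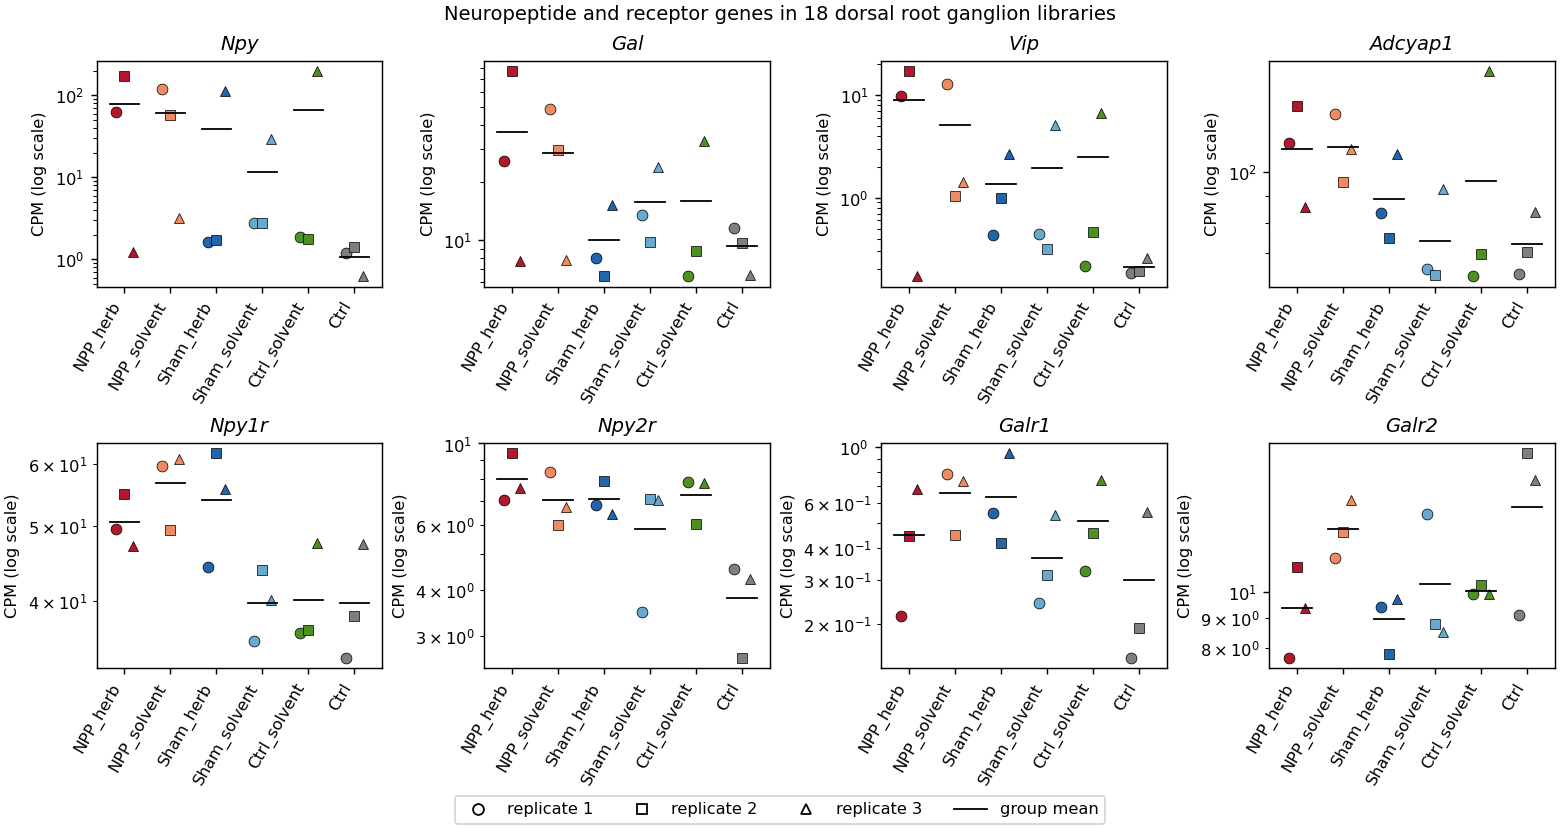
Levels of the 8 genes in 18 libraries, in CPM on a log axis that differs between panels; each symbol is 1 library, its shape gives the replicate number, and the line is the group mean. Npy and Gal split within groups, with replicate 3 low in both NPP groups and high in Sham_herb, Sham_solvent and Ctrl_solvent, while Npy1r, Npy2r and Galr2 span narrower ranges.

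Npy1r encodes the Y1 receptor of neuropeptide Y. It was at 49.5, 54.9 and 47.1 CPM in NPP_herb, 59.5, 49.4 and 60.9 CPM in NPP_solvent, 44.3, 62.0 and 55.7 CPM in Sham_herb, 35.6, 43.9 and 40.1 CPM in Sham_solvent, 36.5, 36.7 and 47.5 CPM in Ctrl_solvent, and 33.9, 38.3 and 47.3 CPM in Ctrl. NPP_solvent and Sham_herb each lay wholly above Sham_solvent. The order of the group means was NPP_solvent, Sham_herb, NPP_herb, Ctrl_solvent, Sham_solvent and Ctrl, and each group overlapped the next.

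Npy2r encodes the Y2 receptor, which sits on nerve endings and holds back transmitter release. Its levels were 7.04, 9.42 and 7.59 CPM in NPP_herb, 8.38, 6.0 and 6.74 CPM in NPP_solvent, 6.82, 7.89 and 6.44 CPM in Sham_herb, 3.50, 7.09 and 7.02 CPM in Sham_solvent, 7.85, 6.06 and 7.83 CPM in Ctrl_solvent, and 4.57, 2.62 and 4.28 CPM in Ctrl. The Ctrl libraries and Sham_solvent replicate 1 were the 4 lowest, and Ctrl_solvent did not overlap Ctrl. By mean, NPP_herb came first, then Ctrl_solvent, Sham_herb, NPP_solvent, Sham_solvent and Ctrl, each overlapping the next.

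Galr1 and Galr2 encode receptors of galanin. Galr1 lay between 0.147 and 0.948 CPM, with 4 to 29 reads per library, and averaged 0.449 ± 0.235 CPM in NPP_herb, 0.657 ± 0.180 in NPP_solvent, 0.638 ± 0.277 in Sham_herb, 0.366 ± 0.155 in Sham_solvent, 0.509 ± 0.214 in Ctrl_solvent and 0.299 ± 0.223 in Ctrl (SD, n = 3 each). Counts this low limit what can be seen of it. Galr2 was at 7.69, 11.04 and 9.36 CPM in NPP_herb, 11.4, 12.7 and 14.4 CPM in NPP_solvent, 9.42, 7.82 and 9.71 CPM in Sham_herb, 13.6, 8.80 and 8.51 CPM in Sham_solvent, 9.90, 10.3 and 9.93 CPM in Ctrl_solvent, and 9.13, 17.4 and 15.6 CPM in Ctrl. NPP_herb lay wholly below NPP_solvent for Galr2, and the 2 highest libraries were Ctrl replicates 2 and 3, the pair with few Y-linked reads.

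Per length, as the FPKM that the authors deposited (reads scaled to gene length and library size), Npy was the highest of the 8 genes in 7 libraries, Adcyap1 in 7, Gal in 3 and Npy1r in 1. The 7 libraries led by Npy were those with over 29 CPM of it. The median level over the 18 libraries was 15.7 FPKM for Adcyap1, 13.6 for Gal, 13.3 for Npy1r, 4.25 for Npy, 2.61 for Galr2, 1.45 for Npy2r, 0.37 for Vip and 0.18 for Galr1. Npy reached 321 FPKM in Ctrl_solvent replicate 3, where Npy1r was at 13.9 FPKM. Npy1r was above Npy2r in every library, and Galr2 above Galr1.

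**Figure D2:**
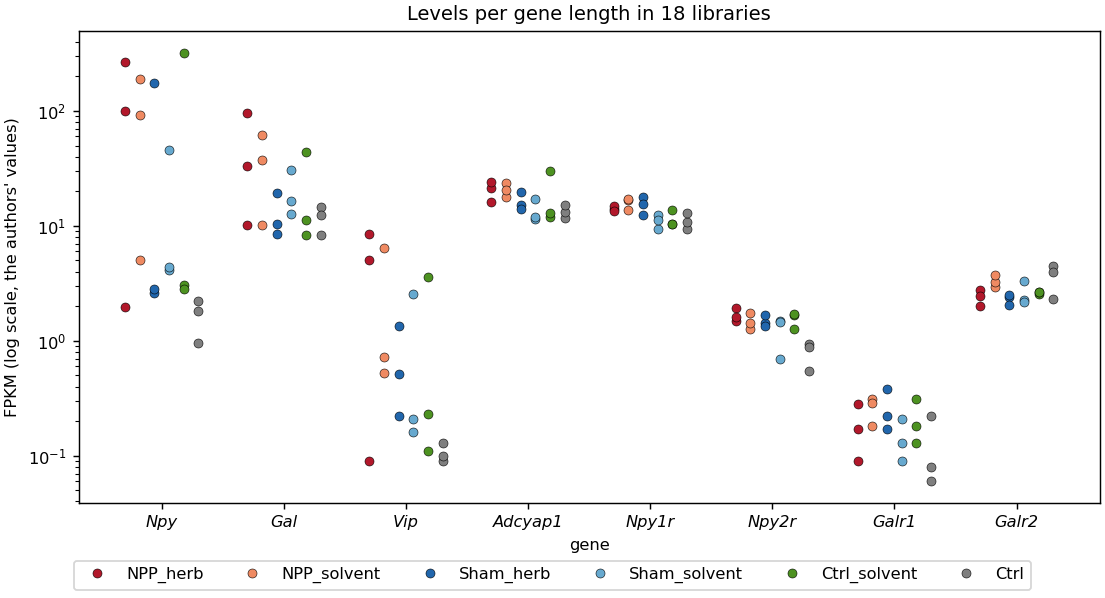
Levels per gene length (FPKM, the authors' values, log axis) of the 8 genes, 1 point per library, coloured by group. Npy spans 0.96 to 321 FPKM, Adcyap1 and Npy1r stay between 9.37 and 29.8 FPKM, and Galr1 stays at or below 0.38 FPKM.

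The spread between replicates sets what the comparisons can show. The SD of log2 CPM within groups was 2.96 for Npy and 2.10 for Vip, at percentiles 99.97 and 99.8 of the 17043 genes tested. It was 1.26 for Atf3 and 1.09 for Gal, at percentiles 98.6 and 97.6, against a median of 0.24 over all genes. Galr1 (0.60), Adcyap1 (0.38), Npy2r (0.34) and Galr2 (0.29) were above that median and Npy1r (0.20) below it. Differences between groups made up 29.1% of the variance of Npy, 28.9% of Gal and 31.9% of Vip. Those shares were near the 34.3% that was the median of all genes. For Npy1r the share was 65.1% and for Npy2r 63.0%. The shares are not corrected for the number of groups, so part of each can arise even where groups do not differ.

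The first comparison asked whether the NPP state altered these genes without the decoction. All 8 genes had a higher fitted level in NPP_solvent than in Sham_solvent, where 51.3% of all genes did, but 0 of 8 passed at an adjusted p under 0.05 (edgeR quasi-likelihood test, Benjamini-Hochberg over all genes), and neither did any of the 17043 genes (0%). At an unadjusted p under 0.05 there were 967 genes (5.67%), 1 of them among the 8, and DESeq2 also called 0 genes. The median log2 fold change of the 8 genes was 0.72, against 0.01 over all genes.

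Npy1r had the smallest p of the 8. It averaged 56.6 ± 6.28 CPM in NPP_solvent and 39.9 ± 4.15 CPM in Sham_solvent (SD, n = 3 each), a log2 fold change of 0.51 ± 0.15 (SE), with an edgeR unadjusted p of 0.00342 and an adjusted p of 0.755. Adcyap1 averaged 112 ± 16.5 CPM in NPP_solvent and 74.0 ± 16.5 CPM in Sham_solvent, a log2 fold change of 0.59 ± 0.29 with an edgeR adjusted p of 0.755. These were the 2 genes of the 8 whose groups did not overlap, as for 4.44% of all genes in that direction. The log2 fold change was 2.39 ± 2.13 for Npy, 1.39 ± 1.53 for Vip, 0.86 ± 0.84 for Gal, 0.84 ± 0.56 for Galr1, 0.32 ± 0.22 for Galr2 and 0.25 ± 0.25 for Npy2r, with edgeR adjusted p values of 0.759 to 0.824. Without NPP_solvent replicate 1 the values of Npy, Gal and Vip were 1.40, 0.24 and -0.64, without Sham_solvent replicate 3 they were 4.44, 1.28 and 3.74, and without Sham_solvent replicate 1 that of Npy2r was -0.01. In bulk tissue, fewer cells of a type and less RNA per cell cannot be told apart. Summed markers of non-peptidergic nociceptors (4 of 4 in the table) were at 1029 to 1114 CPM in NPP_solvent and 829 to 979 CPM in Sham_solvent. Those listed for spinal cord (6 of 6) were at 16.5 to 21.9 CPM in NPP_solvent and 8.17 to 12.6 CPM in Sham_solvent. Nearly all of the second sum was Gfap, with a median of 13.9 CPM over all libraries. Slc1a2, Mog, Opalin, Slc6a5 and Slc32a1 had medians of 0 to 0.323 CPM, so this sum is in effect a reading of Gfap. In the nociceptor sum Ret and P2rx3 had medians of 497 and 424 CPM over all libraries, and Mrgprd of 5.05 CPM. The sums of the other cell types read overlapped between NPP_solvent and Sham_solvent. The part of the nociceptor and spinal cord sums in the levels of the 8 genes was not tested.

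Both NPP groups were then set against both Sham groups, with 6 libraries on each side. All 8 genes were again fitted higher in NPP, against 49.4% of all genes, and the comparison shares the NPP_solvent and Sham_solvent libraries with the first. EdgeR called 0 of the 8 and 0% of all genes, DESeq2 called 0, and 432 genes (2.53%) had an unadjusted p under 0.05 by edgeR. Gal averaged 32.6 ± 26.3 CPM in the 6 NPP libraries and 12.9 ± 6.39 CPM in the 6 Sham libraries (SD), a log2 fold change of 1.36 ± 0.60 (edgeR unadjusted p = 0.0426, adjusted p = 0.998), and without NPP_herb replicate 2 the value was 0.79 (edgeR unadjusted p = 0.185). Adcyap1 averaged 111 ± 18.4 CPM in NPP and 81.5 ± 17.2 CPM in Sham libraries, a log2 fold change of 0.46 ± 0.20 (edgeR unadjusted p = 0.0418, adjusted p = 0.998). Both were below 0.05 before adjustment in the fit of all 18 libraries. Without the filter on low counts the edgeR unadjusted p of Adcyap1 was above 0.05, and that of Gal stayed below it. None of the 8 genes separated the 6 NPP from the 6 Sham libraries. Of all genes, 0.0587% did so with NPP higher and 0.0645% with NPP lower.

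Npy and Vip had larger and less certain values. Npy averaged 69.6 ± 67.02 CPM in NPP and 25.0 ± 43.9 CPM in Sham libraries, and Vip 7.04 ± 7.15 CPM in NPP and 1.65 ± 1.89 CPM in Sham libraries (SD, n = 6 each). Their log2 fold changes were 1.71 ± 1.46 and 2.05 ± 1.10, and those of the 4 receptor genes were 0.19 to 0.22, all with an edgeR adjusted p of 0.998. The value of Npy was 1.04 without NPP_herb replicate 2 and 3.95 without Sham_herb replicate 3, and that of Vip 1.04 without NPP_solvent replicate 1 and 3.23 without Sham_solvent replicate 3. Without NPP_herb replicate 3 the value of Galr1 was -0.06.

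The effect of the decoction was compared within each state. In NPP_herb against NPP_solvent, 4 of the 8 genes were fitted higher, against 47.7% of all genes. None of the 8 and 0% of all genes passed with edgeR, DESeq2 called 1 gene outside the 8, and 319 genes (1.87%) had an unadjusted p under 0.05 by edgeR, none of them among the 8. Galr2 was the gene of the 8 whose groups did not overlap, as for 2.61% of all genes in that direction: it averaged 9.36 ± 1.68 CPM in NPP_herb and 12.8 ± 1.49 CPM in NPP_solvent, a log2 fold change of -0.46 ± 0.22 (edgeR adjusted p = 1). Npy at 0.37 ± 2.003, Gal at 0.36 ± 0.84 and Vip at 0.82 ± 1.48 had standard errors above their log2 fold changes, and Adcyap1 was at -0.01 ± 0.29. Without NPP_herb replicate 2 the first 3 of these values were -0.95, -0.77 and -0.05, and without NPP_solvent replicate 3 those of Npy and Gal were -0.19 and -0.10. For Adcyap1 the value was 0.14 without NPP_herb replicate 3 and 0.10 without NPP_solvent replicate 1.

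In Sham_herb against Sham_solvent, 5 of the 8 genes were fitted higher, against 50.7% of all genes. EdgeR and DESeq2 each called 0 genes (0%), and 1686 genes (9.89%) had an unadjusted p under 0.05 by edgeR, with Npy1r among them. Npy1r averaged 54.0 ± 8.98 CPM in Sham_herb and 39.9 ± 4.15 CPM in Sham_solvent, a log2 fold change of 0.44 ± 0.15 (edgeR unadjusted p = 0.00942, adjusted p = 0.491). Its groups did not overlap, as for 8.52% of all genes in that direction. The log2 fold changes of Npy, Gal and Vip were 1.73 ± 2.09, -0.66 ± 0.85 and -0.50 ± 1.57. The value of Npy was -2.77 without Sham_herb replicate 3, that of Vip 1.85 without Sham_solvent replicate 3, and those of Npy2r and Galr2 were -0.01 and 0.05 without Sham_solvent replicate 1, against 0.26 and -0.19 with it. Non-peptidergic nociceptor markers summed to 1084 to 1131 CPM in Sham_herb and 829 to 979 CPM in Sham_solvent. Satellite glia markers (6 of 6) summed to 1134 to 1173 CPM in Sham_herb and 1090 to 1116 CPM in Sham_solvent. The sums of the other cell types read overlapped between Sham_herb and Sham_solvent. The part of the nociceptor and glia sums was not tested.

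The difference between these herb effects was tested directly for each gene. For Npy1r the log2 difference, NPP minus Sham, was -0.60 ± 0.21 (edgeR unadjusted p = 0.0108, adjusted p = 0.92), and the other 7 genes had adjusted p values of 0.92 to 0.981. EdgeR called 0 of the 8 and 0% of all genes, with 580 genes (3.4%) at an unadjusted p under 0.05, and DESeq2 called 3 genes, none of them a member of the 8. Npy1r averaged 50.5 ± 3.96 CPM in NPP_herb, 56.6 ± 6.28 CPM in NPP_solvent, 54.0 ± 8.98 CPM in Sham_herb and 39.9 ± 4.15 CPM in Sham_solvent, so Sham_solvent was the lowest of the 4 groups.

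**Figure D3:**
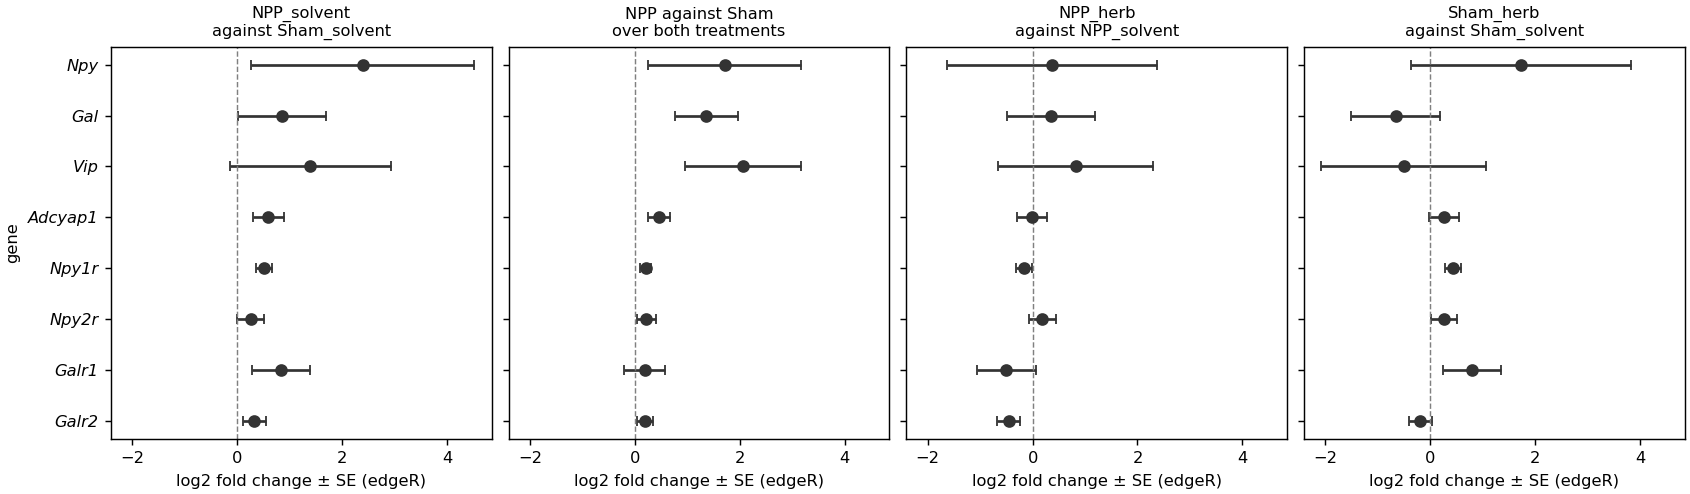
Log2 fold change of the 8 genes by edgeR in 4 comparisons, each named with the group on top of the ratio first. Bars are standard errors worked out from the F statistic of the test. All points are right of 0 in the 2 comparisons of NPP with Sham, and the bars of Npy and Vip are many times as long as that of Npy1r.

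The control groups were compared next. In Ctrl_solvent against Ctrl, 7 of the 8 genes were fitted higher, against 51.1% of all genes. EdgeR called 0 of the 8 and 0% of all genes, with 2218 genes (13%) at an unadjusted p under 0.05, while DESeq2 called 466 genes. Without Ctrl_solvent replicate 2 edgeR called 734 genes, and without Ctrl replicates 1 or 2 it called 23 or 2. Npy2r averaged 7.25 ± 1.03 CPM in Ctrl_solvent and 3.82 ± 1.05 CPM in Ctrl (SD, n = 3 each), a log2 fold change of 0.91 ± 0.26 with an edgeR adjusted p of 0.145 and a DESeq2 adjusted p of 0.0271. Npy averaged 66.6 ± 112 CPM in Ctrl_solvent and 1.07 ± 0.405 CPM in Ctrl, a log2 fold change of 5.99 ± 2.70 with an edgeR adjusted p of 0.375 and a DESeq2 adjusted p of 0.0329. For both genes the groups did not overlap, as for 8.45% of all genes in that direction. Galr2 was on the other side, at 10.0 ± 0.212 CPM in Ctrl_solvent and 14.0 ± 4.33 CPM in Ctrl, a log2 fold change of -0.48 ± 0.22 (edgeR unadjusted p = 0.0421, adjusted p = 0.365). That direction turned when the class of Y-linked reads was a term in the fit, with a log2 fold change of 0.14 (edgeR unadjusted p = 0.605), and the value was -0.71 without Ctrl replicate 1 and -0.30 without Ctrl replicate 2.

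The value of Npy rested on Ctrl_solvent replicate 3: without that library its log2 fold change was 0.81 (edgeR adjusted p = 0.989). That of Npy2r was 0.71 to 1.06 when any 1 library was left out, with an edgeR adjusted p of 0.0494 without Ctrl_solvent replicate 2, and 0.66 with an adjusted p of 0.915 when the class of Y-linked reads was a term in the fit. That term leaves Ctrl replicate 1 as the comparison for Ctrl_solvent. Macrophage markers (6 of 6) summed to 106 to 388 CPM in Ctrl_solvent and 52.8 to 100.5 CPM in Ctrl. T cell markers (4 of 4) summed to 1.98 to 20.5 CPM in Ctrl_solvent and 0.359 to 1.40 CPM in Ctrl. The sums of the other cell types read overlapped between Ctrl_solvent and Ctrl. The part of the macrophage and T cell sums was not tested.

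In Sham_solvent against Ctrl_solvent, 1 of the 8 genes was fitted higher, against 48.4% of all genes. With edgeR 0 of the 8 and 0% of all genes passed, 1043 genes (6.12%) had an unadjusted p under 0.05, none of them among the 8, and DESeq2 called 35 genes. Without Ctrl_solvent replicate 2 edgeR called 252 genes. The log2 fold change of Npy was -2.53 ± 2.14, that of Adcyap1 -0.38 ± 0.29 and that of Gal -0.02 ± 0.85, with edgeR adjusted p values of 0.921 to 0.998 over the 8 genes. For Npy1r the log2 fold change was -0.01 ± 0.15.

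A single test of any difference among the 6 groups was also made. By edgeR 0 of the 8 and 0% of all genes passed, with 1745 genes (10.2%) at an unadjusted p under 0.05. Of the 8 genes, Npy1r had an unadjusted p of 0.00462, Npy2r of 0.0128 and Galr2 of 0.0464, with edgeR adjusted p values of 0.319, 0.388 and 0.486. DESeq2 called 466 genes and gave Npy1r an adjusted p of 0.0255. Without Ctrl_solvent replicate 2, Ctrl replicate 1 or Sham_herb replicate 2, edgeR called 319, 19 and 3 genes. For Npy, Gal, Vip, Adcyap1 and Galr1 the edgeR adjusted p was 0.58 to 0.706.

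What the 4 peptide genes shared was their pattern over single libraries. The 7 libraries with the most Npy were also the 7 with the most Gal and the most Atf3, and 6 of the 7 with the most Vip and with the most Adcyap1. For the receptors the shared libraries numbered 5 for Npy1r and 3 each for Npy2r, Galr1 and Galr2. These libraries came from 5 of the 6 groups, and their depth of 18.3 to 30.6 (1e6 reads) lay within the range of the others.

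**Figure D4:**
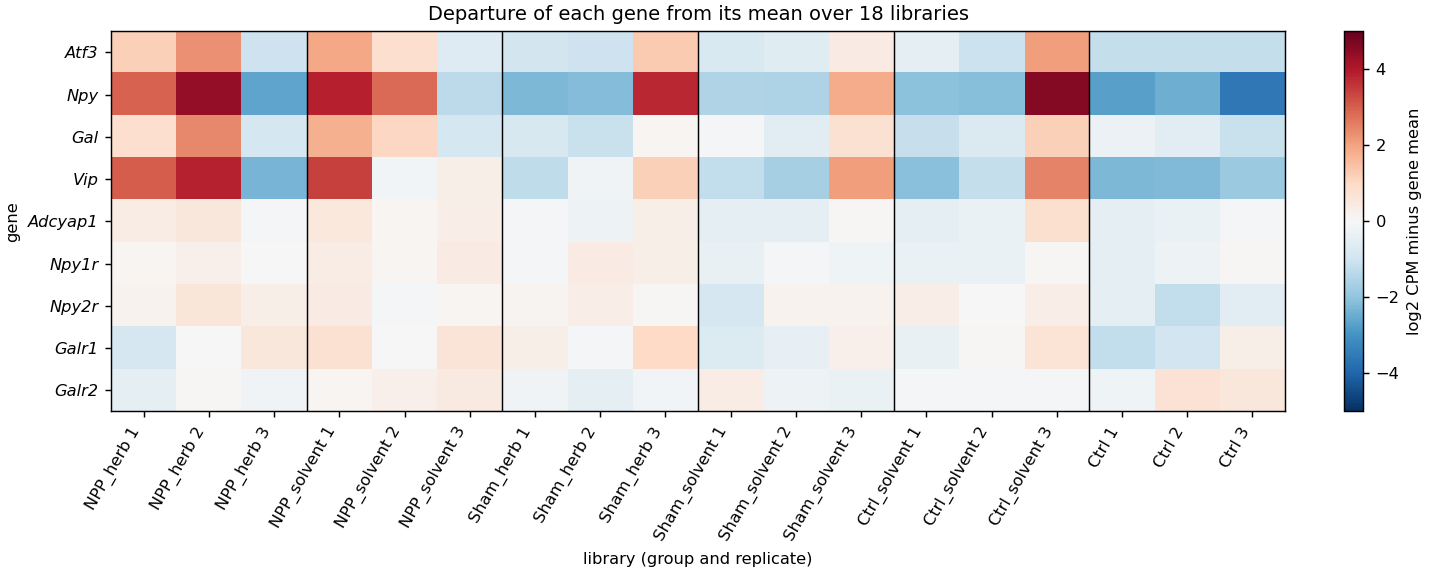
Log2 CPM of Atf3 and the 8 genes in each of 18 libraries minus the mean of the gene over all libraries, in colour, with black lines between groups. Atf3, Npy and Gal are high in the same 7 libraries of 5 groups, and Vip and, over a smaller range, Adcyap1 have 6 of these 7 among their highest.

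Because the Npy values fell into a high and a low set of libraries, no r over all 18 is given for the 8 pairs with Npy, although they entered the adjustment over 36 pairs. Among the 7 libraries above the gap, Npy and Atf3 had a Pearson r of 0.95 on log2 CPM (exact permutation p = 0.00119, adjusted p = 0.019) and a Spearman rho of 0.96 (exact permutation p = 0.00278, adjusted p = 0.0222). Among the 11 below it the r was 0.75 (permutation p = 0.00698, adjusted p = 0.0381) and the rho 0.79 (permutation p = 0.0055, adjusted p = 0.0293). Without the 2 libraries farthest from the median the r was 0.87 above and 0.71 below the gap. Npy and Adcyap1 had an r of 0.89 above the gap (exact permutation p = 0.00714, adjusted p = 0.0381; rho 0.96, exact permutation p = 0.00278, adjusted p = 0.0222), 0.79 without the 2 farthest, and of -0.02 below it (permutation p = 0.962, adjusted p = 0.972; rho -0.21, permutation p = 0.54). These were 3 of 16 relations within the sets that passed. Npy with Gal had an r of 0.47 above and 0.32 below the gap, neither of which passed (exact permutation p = 0.29 and permutation p = 0.334).

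Over all 18 libraries, 15 of the 28 pairs without Npy passed at an adjusted p under 0.05, with 100000 permutations and adjustment over 36 pairs. The share of all gene pairs that would pass in these libraries was not counted. Whether the pairs here pass more often than pairs of other genes was therefore not tested. Gal with Atf3 had an r of 0.91 (permutation p = 1e-05, the smallest they can give, adjusted p = 6e-05) and a rho of 0.74 (permutation p = 0.00079, adjusted p = 0.00472). Vip with Atf3 had an r of 0.90 (permutation p = 1e-05, adjusted p = 6e-05) and a rho of 0.81 (permutation p = 9e-05, adjusted p = 0.00108). Adcyap1 with Atf3 had an r of 0.85 (permutation p = 1e-05, adjusted p = 6e-05) and a rho of 0.67 (permutation p = 0.00271, adjusted p = 0.00976). Without the 2 libraries farthest from the median these r values were 0.85, 0.85 and 0.77, and taken as deviations from group means 0.93, 0.88 and 0.82, so the relation was also present within groups. The labels name no batch within which it could be repeated. Atf3 also had its widest gap between the same libraries as Npy, with 11 at or below 15.9 CPM and 7 at or above 29.4 CPM. That gap was 25.4% of its range, under the limit for 2 sets. How far these r values rest on the contrast between the 7 and the 11 libraries was not tested.

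The peptide genes were related to each other too. Gal with Vip had an r of 0.85 (permutation p = 7e-05, adjusted p = 0.00028) and a rho of 0.72 (permutation p = 0.00104, adjusted p = 0.00472), with an r of 0.75 without the 2 farthest libraries. Vip with Adcyap1 had an r of 0.86 (permutation p = 1e-05, adjusted p = 6e-05) and a rho of 0.79 (permutation p = 0.00015, adjusted p = 0.00135), with 0.81 without those libraries. Gal with Adcyap1 had an r of 0.73 (permutation p = 0.00058, adjusted p = 0.00209) and a rho of 0.63 (permutation p = 0.00623, adjusted p = 0.0187), with 0.62 without them.

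**Figure D5:**
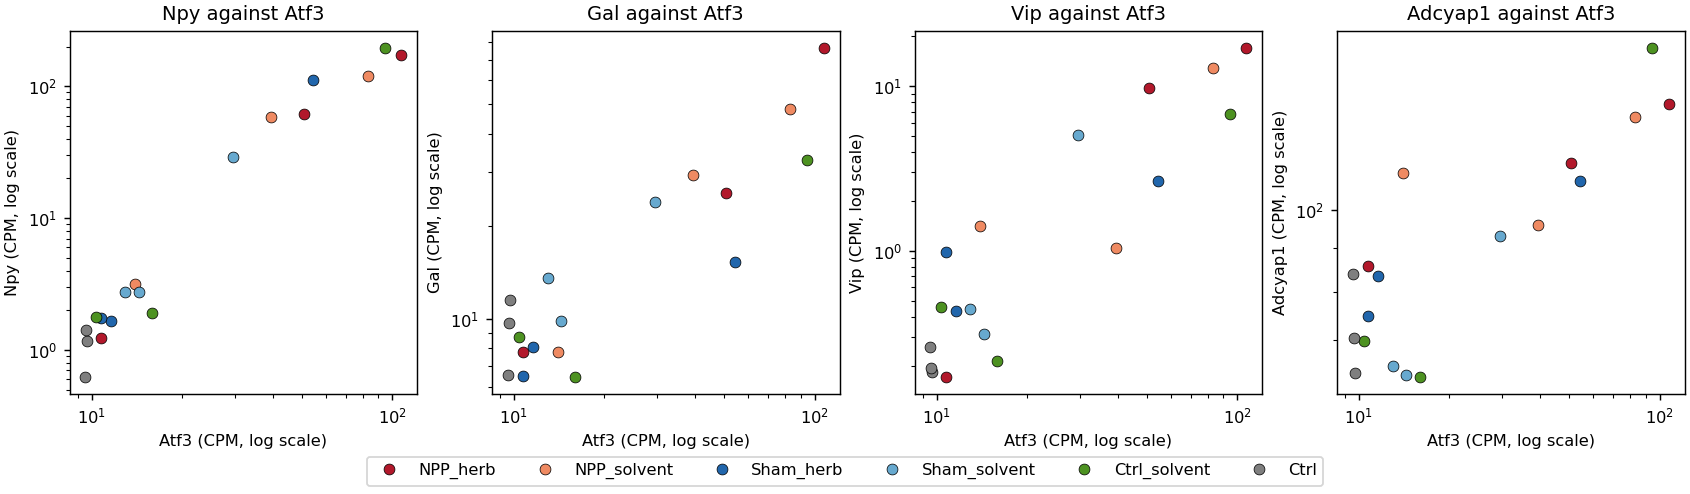
Npy, Gal, Vip and Adcyap1 against Atf3 in 18 libraries, in CPM on log axes, coloured by group. High values of Atf3 and of the peptide genes occur together in NPP_herb, NPP_solvent, Sham_herb, Sham_solvent and Ctrl_solvent, and the Ctrl points sit at the low end, with Npy in a high and a low set.

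The receptor genes were set against Atf3 and the peptide genes in the same way. Atf3 and Npy2r passed, with an r of 0.53 (permutation p = 0.0213, adjusted p = 0.0426) and a rho of 0.60 (permutation p = 0.0106, adjusted p = 0.0273), and the r was 0.53 without the 2 farthest libraries and 0.27 as deviations from group means. The other 3 receptors did not pass: Atf3 had an r of 0.47 with Npy1r (permutation p = 0.0517, adjusted p = 0.0846), 0.38 with Galr1 (permutation p = 0.121, adjusted p = 0.179) and -0.17 with Galr2 (permutation p = 0.487, adjusted p = 0.565). Gal had an r of 0.15 with Galr1 (permutation p = 0.542, adjusted p = 0.61) and of -0.07 with Galr2 (permutation p = 0.78, adjusted p = 0.851). Whether these r values differ from those of the peptide genes was not tested. Npy1r varied with Adcyap1, with an r of 0.67 (permutation p = 0.00277, adjusted p = 0.00907) and a rho of 0.73 (permutation p = 0.00105, adjusted p = 0.00472), and 0.74 without the 2 farthest libraries. Adcyap1 with Galr1 had an r of 0.61 (permutation p = 0.00837, adjusted p = 0.0215) and a rho of 0.60 (permutation p = 0.0106, adjusted p = 0.0273), and 0.62 without those farthest. Vip with Npy1r had an r of 0.57 (permutation p = 0.0155, adjusted p = 0.0349) and a rho of 0.63 (permutation p = 0.00603, adjusted p = 0.0187), and 0.44 without them.

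In the other pairs with a receptor that passed by r, the rho did not pass. Vip with Npy2r had an r of 0.55 (permutation p = 0.0152, adjusted p = 0.0349) and a rho of 0.46 (permutation p = 0.0592, adjusted p = 0.112), and 0.42 without the 2 farthest libraries. Npy1r had an r of 0.54 with Npy2r (permutation p = 0.0183, adjusted p = 0.0387; rho 0.48, adjusted p = 0.102) and of 0.63 with Galr1 (permutation p = 0.00575, adjusted p = 0.0159; rho 0.54, adjusted p = 0.0521), and 0.39 and 0.47 without the farthest libraries. For Npy2r with Galr1 the r was 0.53 (permutation p = 0.0241, adjusted p = 0.0458; rho 0.27, adjusted p = 0.381), and 0.27 without them. Npy2r and Galr2 ran in opposite directions, with an r of -0.64 (permutation p = 0.00462, adjusted p = 0.0139) and a rho of -0.44 (permutation p = 0.0729, adjusted p = 0.125). That relation rested on a few libraries: the r was -0.34 without the 2 farthest, -0.47 without Ctrl replicate 2 (adjusted p = 0.11) and -0.32 without the pair of Ctrl libraries low in Y-linked reads (adjusted p = 0.321).

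The genes most like each member over the 18 libraries were taken by Pearson's r of log2 CPM among 13138 named genes with a mean of at least 1 CPM, as a description of libraries that share their depth and preparation. Npy was most like Atf3, Pde6b, a phosphodiesterase subunit, and Sema6a, a membrane semaphorin. Their r is not given because of the gap in Npy. Pde6b ran from 0.776 to 7.97 CPM and Sema6a from 20.4 to 57.9 CPM. Gal was most like Stmn4, a stathmin that acts on microtubules (r = 0.93), Gadd45a, a stress response gene (r = 0.91), and Atf3 (r = 0.91). Vip was most like the secreted protein gene Crisp3 (r = 0.94), the muscle LIM protein gene Csrp3 (r = 0.91) and Pde6b (r = 0.91). Adcyap1 was most like the kinase gene Tnik (r = 0.92), the synaptotagmin gene Syt4 (r = 0.91) and Flrt3 (r = 0.91). Stmn4, Gadd45a, Flrt3 and Atf3 also belong to the list of injury response genes. That list was chosen with earlier results of these data known, so the overlap is a description only.

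The nearest genes of the receptors were taken in the same way. Npy1r was most like the kinase gene Prkx (r = 0.91), the liprin gene Ppfia2 (r = 0.89) and the neuronal serpin gene Serpini1 (r = 0.88). Npy2r was most like the translation factor gene Eif4e (r = 0.92), the chromatin remodelling gene Smarca5 (r = 0.90) and the endosome gene Rab5a (r = 0.89). Galr1, with few reads, was most like Lman1l, the nuclear pore gene Nup107 and the ribosome assembly gene Heatr1 (r = 0.79 to 0.83). Galr2 was most like Agpat4, an acyltransferase gene (r = 0.83), and the peptide genes Nppb, encoding a natriuretic peptide (r = 0.81), and Calca, encoding CGRP (r = 0.81). None of these 12 genes is among those nearest to Npy, Gal, Vip or Adcyap1.

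Of the 6 other receptors of these peptides, 3 were nearly unread. Npy4r had 1 read, Galr3 had 6 and Vipr1 had 86 over all 18 libraries, and these 3 were under the filter. Npy5r, a further Y receptor, had a median of 1.04 FPKM, Vipr2, which binds VIP and PACAP, 0.735 FPKM, and Adcyap1r1, the PACAP receptor, 0.40 FPKM. Npy5r averaged 3.59 ± 0.711 CPM in the 6 NPP libraries and 3.16 ± 0.806 CPM in the 6 Sham libraries, Vipr2 4.81 ± 0.861 CPM in NPP and 4.77 ± 0.876 CPM in Sham libraries, and Adcyap1r1 3.89 ± 0.871 CPM in NPP and 4.06 ± 0.336 CPM in Sham libraries (SD). For these 3 the log2 fold changes were 0.20 ± 0.18, 0.01 ± 0.15 and -0.06 ± 0.20, all with an edgeR adjusted p of 0.998.

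Genes that cut, amidate, store and degrade peptides were read as a list of 18. EdgeR called 0 of them in NPP against Sham over both treatments. There 10 were fitted higher and 8 lower, against 49.4% of all genes higher. The median log2 fold change was 0.04, against -0.00209 over all genes. Vgf, a granin-like precursor known to increase after nerve injury in rats, averaged 76.7 ± 16.2 CPM in NPP and 49.2 ± 10.5 CPM in Sham libraries (SD, n = 6 each), a log2 fold change of 0.64 ± 0.29 (edgeR unadjusted p = 0.0468, adjusted p = 0.998). The dense-core vesicle gene Chga averaged 167 ± 18.7 CPM in NPP and 191 ± 30.8 CPM in Sham libraries, and the convertase chaperone Scg5 218 ± 19.0 CPM in NPP and 243 ± 36.4 CPM in Sham libraries. The peptidase Dpp4 averaged 3.28 ± 2.24 CPM in NPP and 2.34 ± 1.16 CPM in Sham libraries.

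Of 23 other neuropeptide genes, 21 were tested and 0 were called. In NPP 8 were fitted higher and 13 lower, against 49.4% of all genes higher, with a median log2 fold change of -0.13. Tac1, encoding substance P, averaged 128 ± 16.2 CPM in NPP and 110 ± 18.5 CPM in Sham libraries, and Bdnf, a neurotrophin, 25.5 ± 9.77 CPM in NPP and 18.7 ± 3.87 CPM in Sham libraries. Nppb averaged 4.87 ± 8.501 CPM in NPP and 1.06 ± 0.419 CPM in Sham libraries, and Nmu, encoding neuromedin U, 1.06 ± 0.392 CPM in NPP and 1.74 ± 0.884 CPM in Sham libraries. Of 30 genes through which the receptors act (G proteins, adenylate cyclases, channels, protein kinase A), 0 were called. In NPP 21 were fitted higher and 9 lower, against 49.4% of all genes higher, with a median of 0.04. The calcium channel gene Cacna1b, a target of Y receptor inhibition, averaged 70.0 ± 8.29 CPM in NPP and 61.5 ± 9.87 CPM in Sham libraries, and the adenylate cyclase gene Adcy2 21.0 ± 2.62 CPM in NPP and 18.4 ± 2.84 CPM in Sham libraries. The G protein gene Gnao1 averaged 684 ± 47.8 CPM in NPP and 624 ± 79.1 CPM in Sham libraries, and Gnal 178 ± 19.1 CPM in NPP and 164 ± 25.3 CPM in Sham libraries.

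The injury response list, which includes Atf3, held 22 genes, of which 20 were tested and 0 were called. In NPP against Sham 17 were fitted higher and 3 lower, against 49.4% of all genes higher, with a median log2 fold change of 0.31. In Ctrl_solvent against Ctrl the split was also 17 and 3, against 51.1%, with a median of 0.37. In Sham_solvent against Ctrl_solvent it was 4 and 16, against 48.4%, with a median of -0.31. The medians over all genes were -0.00209, 0.00634 and -0.00733. The list was chosen with earlier results of these data known, and its genes can vary together across libraries. These counts are therefore not of separate results. The genes named next had the smallest p of the list in NPP against Sham. Ecel1, an endopeptidase of injured neurons, averaged 6.398 ± 3.799 CPM in NPP and 2.25 ± 0.496 CPM in Sham libraries, a log2 fold change of 1.499 ± 0.396 (edgeR unadjusted p = 0.00168, adjusted p = 0.998). Cacna2d1, the channel subunit that gabapentin binds, averaged 10.96 ± 3.87 CPM in NPP and 5.45 ± 3.03 CPM in Sham libraries, and the transcription factor Jun 112 ± 22.1 CPM in NPP and 88.5 ± 14.3 CPM in Sham libraries. Gfra1, encoding a receptor of GDNF, averaged 231 ± 32.7 CPM in NPP and 195 ± 27.96 CPM in Sham libraries. Only counts and medians are given for the lists, with no test of a list.

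Neuropeptide Y is also made by sympathetic neurons, whose markers were read in every library. Their summed level was 5.16 to 9.03 CPM for 7 of 8 markers in the table, most of it from Slc18a2, Th and Slc6a2, while Dbh was at 0 to 0.177 CPM, Phox2a at most at 0.0327 CPM and Hand2 at most at 0.114 CPM, all 3 with a median of 0. By replicate the sum was 8.28, 9.03 and 5.22 CPM in NPP_herb, 8.19, 5.62 and 8.29 CPM in NPP_solvent, 5.20, 6.49 and 6.51 CPM in Sham_herb, 5.16, 5.91 and 8.71 CPM in Sham_solvent, 5.84, 5.57 and 5.51 CPM in Ctrl_solvent, and 5.19, 8.15 and 6.76 CPM in Ctrl. In NPP_herb and Sham_solvent the libraries high in Npy had the higher sums, in Sham_herb replicates 2 and 3 had nearly the same sum, and in NPP_solvent and Ctrl_solvent the lowest sum was in a library high in Npy. The part of these markers in the level of Npy was not tested.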

How the data were processed

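Messenger RNA of dorsal root ganglia was sequenced in 18 libraries, 3 per group. Total RNA was bead-captured for messenger RNA, a KAPA stranded kit was used and both fragment ends were read, per the labels' protocols. The submitters' processing notes name HISAT2, DESeq2 and, as genome build, mRatBN7.2. Which counter, strand setting and annotation were used is not given in the sources here. The authors deposited raw read counts per gene, whole numbers with no scaling, for 25678 genes, and FPKM values scaled by the authors to gene length and library size for 25557 of them. Where a symbol was repeated (146 symbols), the row whose identifier equals the symbol was used.

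Counts were filtered with filterByExpr, scaled by TMM (factors 0.946 to 1.04) and tested in edgeR 4.0.16 (R 4.3.3) by its robust quasi-likelihood test. All 18 libraries entered 1 fit with 12 residual degrees of freedom, 2-sided, with Benjamini-Hochberg adjustment over 17043 genes and a threshold of 0.05. The genes removed held at most 0.0495% of any library's reads. EdgeR gives no standard error with this test. The SE given with a log2 fold change is its absolute value over the square root of the F statistic. CPM are counts scaled to library size after TMM, and log2 CPM used a prior count of 2. Alternatives were DESeq2 1.42.0 and its size factors, limma 3.58.1 on log2(FPKM + 0.1), no filter, only the groups compared, a replicate block, the class of Y-linked reads (limit 20 CPM, chosen after seeing the data) and leaving out each library. The fit and the correlations were tested on simulated data. The simulated counts had a single spread for all genes, smaller than that of Npy, Gal and Vip here. They therefore do not show how the fit handles these genes. No 2 libraries of a group agreed within sampling noise (smallest chi-square per degree of freedom 9.97), so each counted as 1.

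The genes described and the gene lists were chosen with earlier results of these data known. Named genes were the 8 members and Atf3, the 3 genes most like each member, the 4 genes of each list (peptide processing, other neuropeptides, receptor coupling, injury response) with the smallest p in NPP against Sham, and all 6 other receptors. Libraries were taken as 2 sets where the widest gap of a gene's log2 CPM passed 33.3% of its range, a rule added after seeing the data. Correlations used 100000 permutations, or all orders for 7 libraries, in SciPy 1.17.1 and NumPy 2.4.6. The windows around gene starts are from RefSeq, build GRCr8, matched by symbol for all 8 genes, and no coordinates were converted between builds.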

Additional observations from a re-analysis of the deposited data

How the results depend on the processing

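The 32 log2 fold changes of the 8 genes in the comparisons of NPP with Sham and of herb with solvent did not pass in any of 464 alternatives (lowest adjusted p 0.0848), and 18 of these turned the sign. The cause of each turn was not tested. With DESeq2 the log2 fold change of Adcyap1 in NPP_herb against NPP_solvent was 0.00053, and with the replicate block it was 0.014. With limma on FPKM that of Npy in NPP_herb against NPP_solvent was -0.24 and that of Vip in Sham_herb against Sham_solvent 0.13. With 1 library left out, values in NPP_herb against NPP_solvent ran from -0.16 to 0.14 for Adcyap1, -0.77 to 0.97 for Gal, -0.95 to 1.36 for Npy and -0.047 to 2.85 for Vip. In NPP_solvent against Sham_solvent they ran from -0.64 to 3.74 for Vip and -0.011 to 0.42 for Npy2r, and in Sham_herb against Sham_solvent from -2.77 to 3.79 for Npy, -1.46 to 1.85 for Vip, -0.0094 to 0.42 for Npy2r and -0.32 to 0.046 for Galr2. Over both treatments Galr1 ran from -0.056 to 0.39. Counts of genes called, 0 by edgeR in every comparison, were 1 in NPP_herb against NPP_solvent, 35 in Sham_solvent against Ctrl_solvent, 466 in Ctrl_solvent against Ctrl, 3 for the difference of herb effects and 466 for any difference with DESeq2, and 1 in Ctrl_solvent against Ctrl without the filter or with limma on FPKM. With 1 library left out they ran from 0 to 734 in Ctrl_solvent against Ctrl, 0 to 252 in Sham_solvent against Ctrl_solvent, 0 to 319 for any difference and 0 to 1 for the difference of herb effects. The highest 3 of these ends, 734, 252 and 319, came without Ctrl_solvent replicate 2. Pairs passing the correlation test, 19 of 36 with Npy included, ran from 12 (without Ctrl replicate 1) to 23. Over 24 pairs of same-numbered libraries the deviations from group means correlated at -0.28 to 0.23, with a median of -0.0064 and 4 over 0.1. Libraries with different numbers were not compared in this way, so whether replicate numbers pair the libraries cannot be told from these values. The replicate block left the count at 0 in every comparison, with 279 to 2136 genes at an unadjusted p under 0.05. Besides that of Adcyap1 it moved these log2 fold changes by over 1.5 times: Npy to 4.01 in NPP against Sham, to 4.32 in NPP_solvent against Sham_solvent and to 0.97 in Sham_herb against Sham_solvent, and Vip to 2.19 in NPP_solvent against Sham_solvent and to -0.15 in Sham_herb against Sham_solvent, with adjusted p values of 0.757 to 1. The Y-linked class turned the value of Galr2 in Ctrl_solvent against Ctrl to 0.14. With the planned limit of 1 CPM that class could not be fitted, since all libraries lay above it. Depth limits Vip and Galr1 most, with as few as 4 reads in a library.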
